A study of Mus musculus with 6 samples.

Results

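The cytosolic ribosome is built from a large subunit, which joins amino acids, and a small subunit, which reads the messenger RNA. Each subunit is a core of ribosomal RNA bound by proteins whose messengers come from single genes scattered over the genome. These messengers are short, abundant and in most cells made in step, and many begin with a 5′ terminal oligopyrimidine (TOP) tract, through which the growth-signalling complex mTORC1 adjusts their translation. In the young nerve, Schwann cells produce large amounts of myelin protein and membrane while they wrap axons. The gene symbols alone decided membership: all protein-coding genes named Rpl or Rps with a number, together with Rplp0, Rplp1, Rplp2 and Rpsa. Kinases of the Rps6k family, models marked as pseudogenes and Rps19bp1, whose product binds a ribosomal protein without being one, were left out. This gave 85 of the 55335 genes in the deposited table, 52 of the large and 33 of the small subunit. Of these, 77 are the standard genes of the ribosome (46 large, 31 small), called core genes here, and 8 are paralogues, which encode a variant of a standard protein: Rpl3l, Rpl7l1, Rpl10l, Rpl22l1, Rpl36al, Rpl39l, Rps27l and Rps27rt.

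Polyadenylated RNA was sequenced from sciatic nerve lysates of mice at postnatal day 14, with 3 libraries per group. Control mice were RhoAfl/fl, and icKO mice were RhoAfl/fl with ChATCreERT2+, so every mouse of both groups carried the floxed RhoA alleles. ChATCreERT2 is a Cre recombinase activated by an oestrogen receptor ligand and driven from the choline acetyltransferase gene of cholinergic neurons, among them the motoneurons whose axons run in this nerve. The cell bodies of those neurons lie in the spinal cord, outside the sampled tissue. The labels give neither the induction schedule nor whether controls received the inducing drug, and do not tell which animals the libraries came from. P-values therefore measure the spread between these samples, which may be technical. Values are FPKM, fragment counts scaled to transcript length and library size, a scale per length on which levels of different genes can be compared. Depth, estimated from the smallest steps of the values, was 17200000 to 20600000 fragments per library. Rhoa, the gene with the floxed alleles, was at 36.5, 39.0 and 38.01 FPKM in the control nerves against 36.4, 33.6 and 33.2 FPKM in the icKO nerves. All 3 icKO values lie below all 3 control values, as they do in 28.9% of all tested genes. On the log2(FPKM + 1) scale icKO differed from control by -0.13, which did not pass (limma, Benjamini-Hochberg adjusted p = 0.195). Recombination in neurons cannot be checked in this tissue.

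Schwann cell markers were present in every library. Of these, Pmp22, a protein of compact myelin, was at 9247 to 11230 FPKM in control and 10740 to 12880 FPKM in icKO nerves, and Sox10, a transcription factor of the lineage, at 163 to 173 and 155 to 194 FPKM. Neither passed the test, while S100b fell from 323 ± 29.6 to 88.1 ± 8.69 FPKM (SD, n = 3 each). The marker calls stand beside 20.8% of all tested genes that rose and 22.1% that fell (limma, Benjamini-Hochberg adjusted p under 0.05). All 7 adipocyte markers fell in icKO nerves, with sums of 466.4 to 570.8 against 101.8 to 170.0 FPKM. Fibroblast markers summed to 927 to 1688 and 749 to 767 FPKM (1 of 6 rose and 4 fell). Skeletal muscle markers summed to 1091 FPKM in control replicate 1 and 1237 FPKM in icKO replicate 3, while the remaining 4 libraries held 8.49 to 293 FPKM. Of the 8 muscle markers 1, Pvalb, fell. The 7 macrophage markers summed to 56.7 to 126 and 73.5 to 78.9 FPKM, and none of them passed the test. Of 4 endothelial markers 1 rose and 2 fell (77.0 to 78.5 against 60.2 to 70.6 FPKM), and 4 haemoglobin genes, of which none passed, summed to 2546 to 8299 and 3397 to 5963 FPKM. No marker of these 7 lists was listed at 0 in a library, while 1 or 2 of the 4 neuron markers were, and those 4 summed to 0.519 FPKM or less. In bulk tissue a change in the number of cells of a type and a change in RNA per cell cannot be told apart, and except for muscle the part of cell composition in the results below was not tested.

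Ribosomal protein messengers were more abundant in icKO nerves, in both subunits. The 77 core genes summed to 6611, 6335 and 6809 FPKM in the control libraries and to 9415, 9821 and 8528 FPKM in the icKO libraries, or 2.42 ± 0.046% and 3.4 ± 0.28% of all FPKM (SD, n = 3 each). The groups do not overlap, and icKO replicate 2 was the highest and icKO replicate 3 the lowest of its group. The level in icKO divided by the level in control had a median of 1.43 over the core genes, with an interquartile range of 1.31 to 1.59. For 63 of the 77 genes this ratio lay between 1.2 and 1.8, for 5 above and for 9 below that range.

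Each gene was tested by a fit over all 12860 genes whose mean reached 1 FPKM, and rose or fell mean an adjusted p under 0.05 (limma on log2(FPKM + 1), Benjamini-Hochberg). Of the 85 genes 83 passed this filter, which did not look at the groups, and Rpl10l and Rpl39l did not. Of these 83, 66 rose, none fell and 17 did not pass, where 20.8% of all tested genes rose, 22.1% fell and 42.9% did either. At an unadjusted p under 0.05 none of them was lower either. All 3 icKO libraries lay above all 3 control libraries in 71 of the 83 and below in none, against 28.4% and 28.9% of all tested genes. The median difference was 0.50 on the log2(FPKM + 1) scale, and that of all tested genes was -0.01. Under 4 other scalings of the libraries 62 to 69 of the genes rose and none fell.

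**Figure D1:**
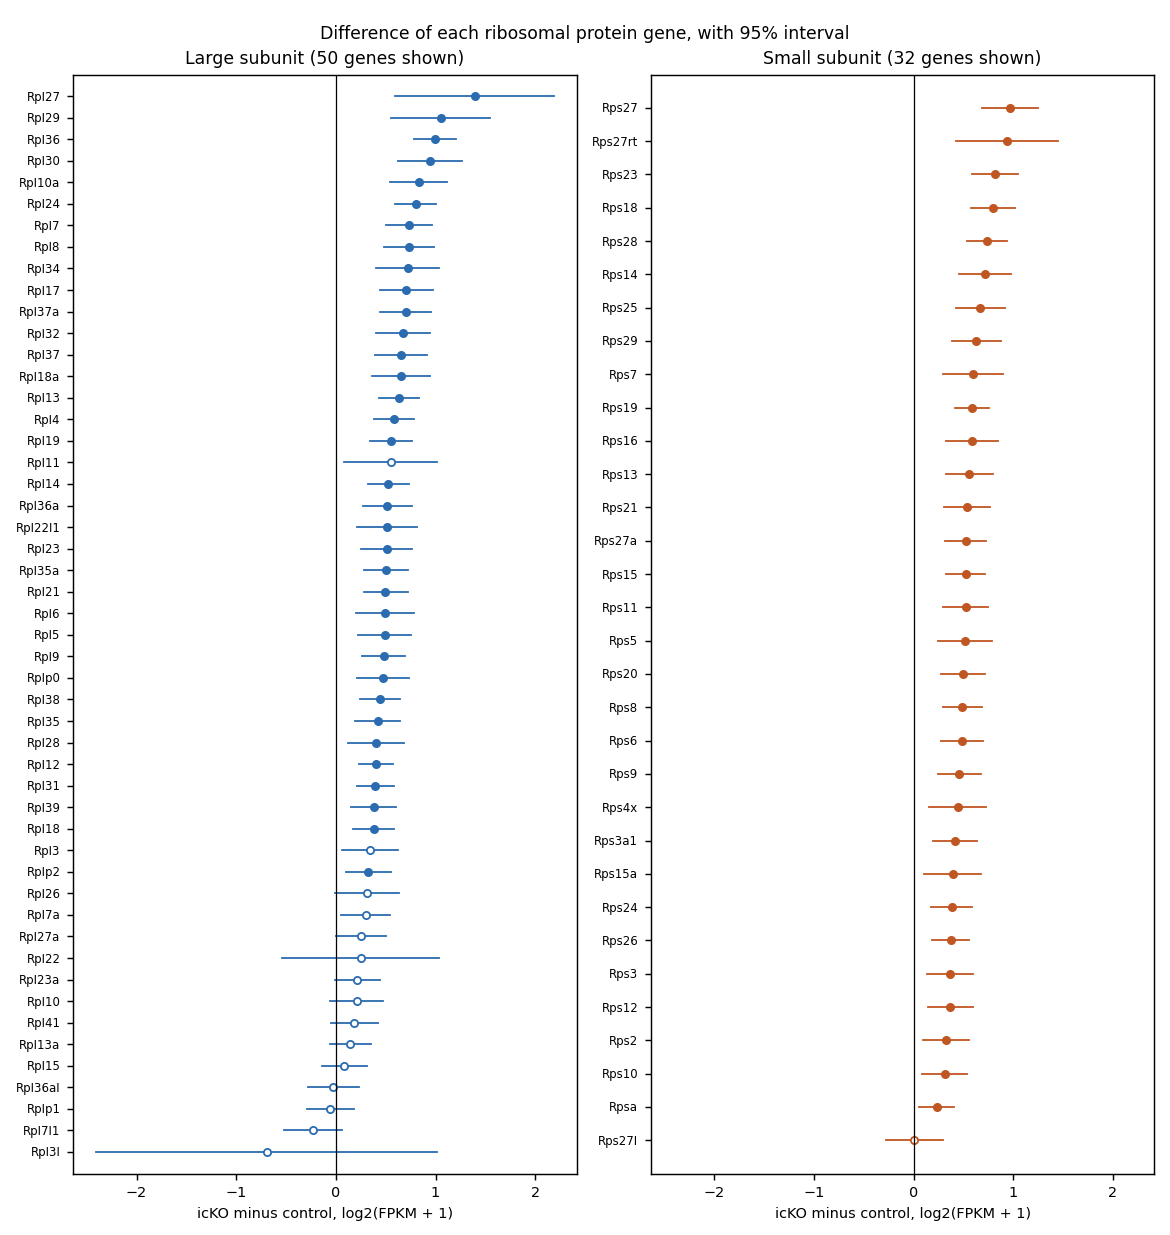
Difference between icKO and control on the log2(FPKM + 1) scale for each tested gene of the large (left, 50 genes) and small subunit (right, 32 of 33 genes shown). Points are fitted differences, lines are 95% intervals, filled points passed an adjusted p of 0.05; 35 large and 31 small subunit genes lie filled to the right of 0, and none lies filled to the left.

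The subunits were set against each other. Of the 50 tested large subunit genes 35 rose, and of the 33 small subunit genes 31 rose, while 15 and 2 did not pass (limma, Benjamini-Hochberg), against 20.8% of all tested genes. The median difference was 0.49 in the large and 0.51 in the small subunit. The mean log2(FPKM + 1) of the large minus that of the small subunit core genes was 0.09, 0.13 and 0.11 in the control libraries and 0.13, 0.10 and 0.09 in the icKO libraries. These values overlap throughout, and their group means of 0.109 and 0.108 differ by less than the SD of 0.022 between libraries. No test was run on a score over the genes.

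**Figure D2:**
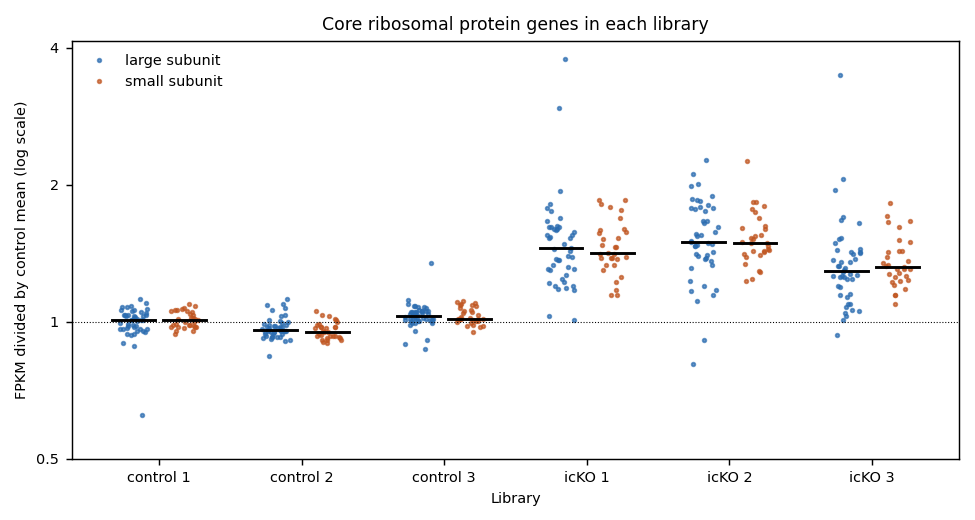
FPKM of each core gene divided by its mean in the control libraries (log scale), for the 6 libraries, with 46 large subunit and 31 small subunit genes as points and their medians as bars. Medians of the large subunit were 0.96 to 1.03 in control and 1.29 to 1.5 in icKO libraries, and those of the small subunit 0.95 to 1.02 and 1.32 to 1.49.

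Ratios of icKO to control ran from 0.96 to 2.92 over the large subunit core genes and from 1.17 to 1.98 over the small subunit core genes. In 28.4% of all tested genes the icKO libraries lay above all control libraries. They did so in 31 of 31 small subunit core genes and in 38 of 46 large subunit core genes. The 8 that overlapped were Rpl10, Rpl11, Rpl13a, Rpl15, Rpl22, Rpl27a, Rpl41 and Rplp1, a set named after its values were seen. Rpl15 was at 38.8, 44.3 and 41.1 FPKM in the control nerves against 41.8, 48.5 and 41.8 FPKM in the icKO nerves, a difference of 0.08 on the log2 scale with a 95% interval of -0.14 to 0.31. Rpl10, whose protein helps to close the peptidyl transferase centre, was at 57.9, 65.4 and 73.1 FPKM in the control nerves against 81.3, 75.1 and 70.5 FPKM in the icKO nerves. The icKO nerve with the lowest level lay below the control nerve with the highest, and the difference of 0.21 (SE 0.11) did not pass (limma, Benjamini-Hochberg adjusted p = 0.168). Rpl10 has 9 near-identical copies, whose summed level was 96.4% of its own in control nerves, so its level is uncertain. Rpl22 varied widely within groups, at 18.1, 29.9 and 39.2 FPKM in the control nerves against 46.5, 23.5 and 33.3 FPKM in the icKO nerves, so that its 95% interval of -0.54 to 1.03 holds both a fall and the median rise of the family.

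Levels differed between the genes far more than between the groups. Control means of the core genes spanned 49.5-fold on the per-length scale, from 10.2 FPKM for Rps28 to 507 FPKM for Rplp1, and 20 of the 77 were at 100 FPKM or more. The order of the genes was nearly the same in both groups, with a Pearson r of 0.978 and a Spearman rho of 0.974 between log2 means across the 77 genes. Genes of one library are not independent replicates, and these values share gene models and lengths, so they are a description. The size of the difference had no close relation to control level (Pearson r -0.201), transcript length (-0.198), GC content (0.227) or the number of near-identical copies (-0.114) across the same genes.

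The ribosomal stalk is an arm of the large subunit that recruits translation factors. Of its 3 genes Rplp0 and Rplp2 rose and Rplp1 did not pass. Rplp0 encodes the base of the stalk, to which dimers of the Rplp1 and Rplp2 proteins bind. Rplp0 (ENSMUSG00000067274) was at 429.5, 403.9 and 419.3 FPKM in the control nerves against 571, 659 and 519 FPKM in the icKO nerves. It rose by 0.47 on the log2 scale (SE 0.11, limma, Benjamini-Hochberg adjusted p = 0.0138), with no overlap between groups, and did not pass without a filter or with a skeletal muscle covariate (adjusted p = 0.0565 and 0.0611, range over alternatives 0.00373 to 0.0611). Rplp2 was at 43.5, 38.6 and 41.2 FPKM in the control nerves against 49.2, 57.4 and 49.1 FPKM in the icKO nerves, a rise of 0.33 (limma, Benjamini-Hochberg adjusted p = 0.0318) that 7 of 22 alternatives did not keep (range 0.0209 to 0.112). Rplp1 was at 483.0, 482.8 and 554 FPKM in the control nerves against 522, 462 and 474.5 FPKM in the icKO nerves, which overlap. Its difference was -0.06 with a 95% interval of -0.29 to 0.18, an interval that does not reach the family's median of 0.50. The same holds for other core genes, among them Rpl15 and Rpl13a (upper ends 0.31 and 0.35). The Rplp1 level was 112, 120 and 132% of the Rplp0 level in control and 91.5, 70.2 and 91.5% in icKO libraries, without overlap. With 3 against 3 libraries the two-sided exact permutation test cannot go below 0.1, the value it gave here (adjusted p = 0.16 over 8 gene pairs), and this pair was picked after the levels were seen. The Rplp2 level was 9.84 ± 0.29% of the Rplp0 level in control and 8.93 ± 0.47% in icKO nerves (SD, n = 3 each), with the same p.

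The largest rises in the large subunit were those of Rpl27, Rpl29, Rpl36 and Rpl30. Rpl27 (ENSMUSG00000063316) was at 20.5, 18.8 and 20.2 FPKM in the control nerves against 75.2, 29.6 and 69.2 FPKM in the icKO nerves. The icKO libraries are all above control, but replicate 2 lies far below the other two, and the rise of 1.39 (SE 0.33, limma, Benjamini-Hochberg adjusted p = 0.0158) did not pass without the 2 muscle-rich libraries (adjusted p = 0.0812, range over alternatives 0.00126 to 0.0812). Its 7 near-identical copies summed to 64.9% of its level in control nerves, which makes the level uncertain. Rpl29 was at 50.7, 57.2 and 54.0 FPKM in the control nerves against 159, 100.2 and 90.2 FPKM in the icKO nerves, with icKO replicate 1 well above the others. Rpl36 was steadier within groups, at 132, 114 and 124 FPKM in the control nerves against 239.6, 261 and 240.0 FPKM in the icKO nerves. It rose 2.0-fold in the mean (log2 SE 0.09, limma, Benjamini-Hochberg adjusted p = 0.000752), with no overlap. Rpl30, whose product binds its own messenger in yeast, went from 21.1 ± 1.38 to 41.8 ± 7.05 FPKM (SD, n = 3 each), also without overlap.

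In the small subunit the largest rises were those of Rps27, Rps27rt, Rps23 and Rps18. Rps27 (ENSMUSG00000090733) was at 45.0, 42.2 and 50.5 FPKM in the control nerves against 85.1, 103 and 83.8 FPKM in the icKO nerves, a rise of 0.97 (SE 0.12, limma, Benjamini-Hochberg adjusted p = 0.00148). Rps23, a protein of the decoding centre, rose from 81.9 ± 5.79 to 145 ± 11.1 FPKM, and Rps18 from 35.6 ± 3.61 to 62.5 ± 1.54 FPKM (SD, n = 3 each). The groups do not overlap for any of these 3 genes. Rps6, the substrate by which S6 kinase activity is often read, was at 119 to 128 FPKM in the control and 160 to 186 FPKM in the icKO nerves (122 ± 4.94 and 172 ± 13.5 FPKM, SD, n = 3 each), close to the median of the family with a ratio of 1.4. Its 11 near-identical copies summed to 67.1% of its level in control nerves. Rps4x, the X-linked gene of a small subunit protein, was at 198, 205 and 229 FPKM in the control nerves against 281, 327.5 and 254 FPKM in the icKO nerves. Its rise of 0.44 (limma, Benjamini-Hochberg adjusted p = 0.0242) was lost under 7 of 22 alternatives (range 0.0156 to 0.0973). Rpsa, a small subunit protein also known as a laminin receptor, had the smallest difference of the small subunit core genes. It was at 128, 130.3 and 134 FPKM in the control nerves against 150.1, 161 and 149.8 FPKM in the icKO nerves, which do not overlap. Its rise of 0.23 (limma, Benjamini-Hochberg adjusted p = 0.0473) lay near the threshold and was lost under 13 of 22 alternatives, among them each of the 6 that left out a library (range over alternatives 0.0213 to 0.145).

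Of the 8 paralogues, 6 were tested, 2 rose (Rpl22l1 and Rps27rt) and 4 did not pass, with a median difference of -0.01 (20.8% of all tested genes rose). Rps27l (ENSMUSG00000036781), a p53-inducible relative of Rps27, was at 24.0, 25.4 and 26.1 FPKM in the control nerves against 26.9, 21.2 and 28.3 FPKM in the icKO nerves. These overlap, with a difference of 0.01 and a 95% interval of -0.28 to 0.29, while Rps27 rose. The level of Rps27l was below that of Rps27 in every library, at 53.5, 60.3 and 51.7% of it in control and 31.6, 20.5 and 33.8% in icKO libraries. Rpl7l1, a relative of Rpl7 that acts in ribosome assembly, was at 10.3, 11.4 and 10.7 FPKM in the control nerves against 8.58, 7.89 and 10.9 FPKM in the icKO nerves. It did not pass (difference -0.23, limma, Benjamini-Hochberg adjusted p = 0.166), but without icKO replicate 3 it fell by 0.36 (adjusted p = 0.0216), and without both muscle-rich libraries by 0.39 (adjusted p = 0.0329, range over alternatives 0.0216 to 0.537). Its standard gene Rpl7 rose from 99.5 ± 6.91 to 167 ± 12.9 FPKM, so that the level of Rpl7l1 was 10.9 ± 1.34% of that of Rpl7 in control and 5.55 ± 1.44% in icKO nerves (SD, n = 3 each). Rpl36al was at 20.8, 21.2 and 23.7 FPKM in the control nerves against 23.6, 18.9 and 22.1 FPKM in the icKO nerves, while Rpl36a rose from 17.6 ± 1.75 to 25.5 ± 2.01 FPKM. In control libraries the Rpl36al level was 111 to 151% of the Rpl36a level, and in icKO libraries 72.3 to 94.9%. Rpl36a has 6 near-identical copies whose summed level was 90.4% of its own in control nerves, so these ratios are uncertain. For these 3 pairs the ratios do not overlap between groups, and each had the smallest p that the two-sided exact permutation test can give, 0.1 (adjusted p = 0.16 over 8 pairs).

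**Figure D3:**
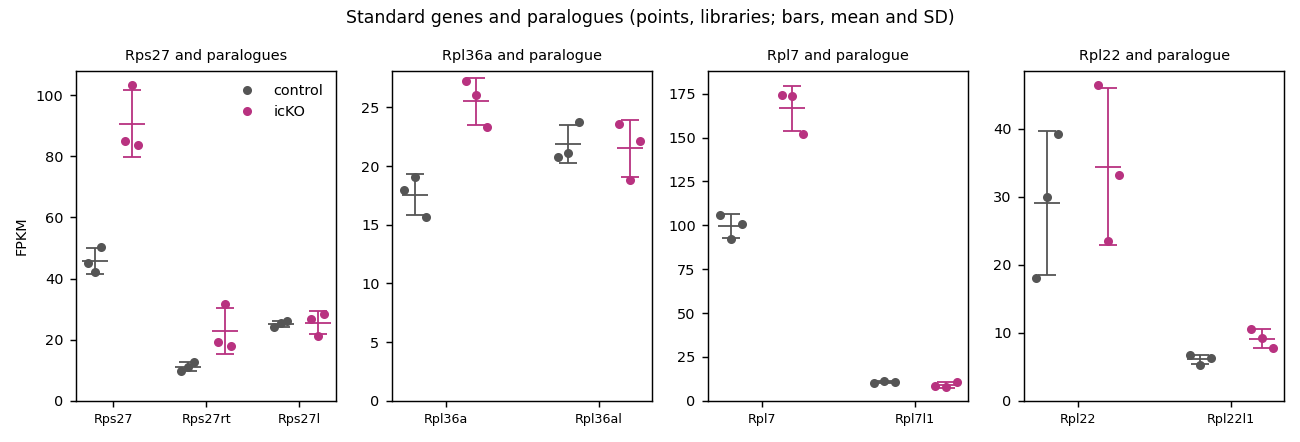
FPKM of 4 standard genes and their paralogues in control (grey) and icKO (magenta) libraries, with points for the 3 libraries of a group and bars for mean and SD. Rps27, Rps27rt, Rpl36a, Rpl7 and Rpl22l1 are higher in every icKO library than in every control library, while Rps27l, Rpl36al, Rpl7l1 and Rpl22 overlap.

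Rpl22l1 rose from 6.09 ± 0.69 to 9.14 ± 1.37 FPKM (SD, n = 3 each, limma, Benjamini-Hochberg adjusted p = 0.0181), a call lost when control replicate 2 was left out (adjusted p = 0.0626), when control replicate 3 was (0.051) and with a muscle covariate (0.0744, range over alternatives 0.00781 to 0.0744). The Rpl22l1 level as a share of that of Rpl22 overlapped between groups, at 16.0 to 36.8% in control and 22.6 to 39.1% in icKO libraries. Rps27rt was at 9.85, 11.0 and 12.7 FPKM in the control nerves against 19.2, 31.6 and 18.0 FPKM in the icKO nerves, a level of 24.4 ± 2.20% and 24.9 ± 4.99% of that of Rps27. Its transcript is a near-identical copy of Rps27, from which fragments can be shared, so its level is uncertain, and its rise did not pass with a muscle covariate (limma, Benjamini-Hochberg adjusted p = 0.0559, range over alternatives 0.00966 to 0.0559). Rpl3l, which replaces Rpl3 in striated muscle, was at 5.004, 0.79 and 1.01 FPKM in the control nerves against 0.033, 0.032 and 3.80 FPKM in the icKO nerves. Its highest values fell in the same 2 libraries as those of Acta1, skeletal muscle actin, which was at 309 and 771 FPKM there and at 2.15 to 80.6 FPKM elsewhere. Its standard gene Rpl3 was at 98.9, 100.3 and 103 FPKM in the control nerves against 128, 148.5 and 110.3 FPKM in the icKO nerves, a difference of 0.34 that did not pass (limma, Benjamini-Hochberg adjusted p = 0.0551). It passed under 6 of 22 alternatives (range 0.0151 to 0.202). Rpl10l, a testis relative of Rpl10, was listed at 0 in all 6 libraries, and Rpl39l was listed at 0 in 4 libraries and at 0.27 and 0.13 FPKM in icKO replicates 1 and 2. Rpl39 rose from 27.3 ± 1.39 to 35.9 ± 3.67 FPKM (limma, Benjamini-Hochberg adjusted p = 0.0199), a call that 4 of 22 alternatives did not keep (range 0.0143 to 0.0733).

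Many of the ribosomal protein genes have processed copies elsewhere in the genome, and how the authors' counting treated fragments with several matches is not given in the sources used here. A search of the annotated transcripts (at least 95% identity over at least 50% of the transcript) found a near-identical copy for 44 of the 77 core genes and none for 33. Of the 33 without a copy within these limits 30 rose, with a median difference of 0.49. Of the 44 with a copy 34 rose, with a median of 0.52 (limma, Benjamini-Hochberg, where 20.8% of all tested genes rose). Shorter or more divergent copies lie outside these limits, so the 33 genes are not a set free of copies. Models named after genes among the 33 include Rpl31-ps8, at 110.8 ± 4.29 FPKM in control nerves. Rps16-ps2 was at 59.7 ± 4.83, Rpl9-ps4 at 25.3 ± 0.85 and Rps24-ps3 at 23.8 ± 2.46 FPKM there (SD, n = 3 each). The part of shared fragments in the rise was not tested. Pseudogene models named after ribosomal proteins numbered 307, of which 79 passed the filter, 50 rose and 1, Rpl26-ps6, fell. Their summed level was 0.201, 0.194 and 0.202 times that of the core genes in control and 0.205, 0.201 and 0.198 times in icKO libraries. This share hardly moved, and whether the models are transcribed or hold fragments of the parent genes was not tested.

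The start sites are shown because a TOP tract lies there. RefSeq promoter windows (build GRCm38.p6, 250 bases before and 50 after the start) were matched by symbol for 65 of the 85 genes, 57 of them core genes with 67 windows. The lines give 30 bases, 15 before and 15 from the annotated start on, on the transcribed strand, with the longest unbroken run of C or T in capitals. The first 7 belong to core genes that rose, 4 of them with a long run and 3 without, the next to Rpl10, which did not pass, and the rest to the paralogues Rps27rt, Rps27l and Rpl36al.
Rps6 (chr4:86857353-86857382, minus strand): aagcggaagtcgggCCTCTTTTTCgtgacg
Rps18 (chr17:33955651-33955680, minus strand): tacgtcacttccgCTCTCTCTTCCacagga
Rps27 (chr3:90213634-90213663, minus strand): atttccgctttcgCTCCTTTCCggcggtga
Rplp2 (chr7:141447636-141447665, plus strand): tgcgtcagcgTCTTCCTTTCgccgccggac
Rplp0 (chr5:115559452-115559481, plus strand): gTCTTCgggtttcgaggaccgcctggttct
Rpsa (chr9:120127751-120127780, plus strand): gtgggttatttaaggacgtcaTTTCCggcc
Rps23 (chr13:90923107-90923136, plus strand): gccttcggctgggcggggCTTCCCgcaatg
Rpl10 (chrX:74270801-74270830, plus strand): gttgttacagtggaagataggccgCCTata
Rps27rt (chr9:114982725-114982754, minus strand): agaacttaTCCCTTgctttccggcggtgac
Rps27l (chr9:66946071-66946100, plus strand): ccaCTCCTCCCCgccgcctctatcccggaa
Rpl36al (chr12:69184053-69184082, minus strand): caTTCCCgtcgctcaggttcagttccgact

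In Rps6, Rps18, Rps27 and Rplp2 a run of 9 to 11 pyrimidines spans the annotated start, which is itself a C. In Rplp0, Rpsa and Rps23, which also rose, the longest run has 5 or 6 bases and does not reach the start, a G, A and G. The marked run of Rps27rt is the first of 2 of equal length, and the other begins at the start. The longest run in the Rpl10 window has 3 bases, and that of Rps27l, the first of its 2 windows, has 9 but ends before the start. A run of at least 8 within 15 bases of the start, on the transcribed strand, was present in 38.8% of the 67 core windows and in 12.0% of all 32851 windows. It was present in 22 of the 57 windows of core genes that rose (38.6%) and in 4 of the 10 windows of those that did not pass (40.0%). Over the whole 300 bases and both strands, the letters CCGGAAGT, a site type of ETS factors, were present in 16.4% of core windows and 3.89% of all windows. CACGTG, the E-box, was present in 11.9% and 7.15% and TATAAA in 8.96% and 13.6%. None of the 3 motifs holds another. A match is a description of these letters, and annotated starts can lie some bases from the start used in nerve.

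Other genes of the translation machinery were read from lists. Of 19 genes listed for TOP-type messengers, 13 rose, 1 fell and 5 did not pass, with a median difference of 0.40 (limma, Benjamini-Hochberg, where 20.8% of all tested genes rose and 22.1% fell). Not all of them are genes of translation, as Hnrnpa1, which rose, and Nap1l1, which did not pass, are among them. The list also holds ribosomal components whose symbols lie outside the naming rule. Fau, which encodes a small subunit protein as a fusion, was at 86.7, 86.1 and 91.6 FPKM in the control nerves against 169.1, 173 and 151 FPKM in the icKO nerves. Rack1, a scaffold on the small subunit, rose from 42.2 ± 5.24 to 55.8 ± 4.79 FPKM (SD, n = 3 each). The largest rises of the list were those of the initiation factor genes Eif3f, from 34.2 ± 0.61 to 72.5 ± 10.9 FPKM, and Eif4b, from 39.2 ± 2.46 to 82.6 ± 16.2 FPKM. Eef1g, a subunit of elongation factor 1, fell from 62.1 ± 2.59 to 42.5 ± 4.2 FPKM, against the direction of the list. The main elongation factor gene Eef1a1 did not pass, at 875, 887 and 865 FPKM in the control nerves against 1062, 1407 and 989.9 FPKM in the icKO nerves (adjusted p = 0.0713 by limma), although its groups do not overlap.

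Ribosome assembly depends on many factors that act in the nucleolus and nucleus. Of 38 tested biogenesis factors 12 rose, 2 fell and for 24 neither call was made, where 20.8% of all tested genes rose and 22.1% fell. Their median was 0.21. Nop53, an assembly factor of the large subunit, rose from 18.8 ± 0.86 to 47.1 ± 6.10 FPKM and Gnl3, nucleostemin, from 2.72 ± 0.41 to 5.81 ± 1.22 FPKM (SD, n = 3 each). The 2 that fell were Dkc1 (3.94 ± 0.26 to 2.25 ± 0.15 FPKM), which encodes a pseudouridine synthase of ribosomal RNA, and Nop10 (13.5 ± 0.59 to 7.63 ± 1.34 FPKM), which encodes a partner of it. The other partners on the list, Nhp2 and Gar1, did not pass, with differences of 0.16 and 0.19. Of 11 tested genes of the RNA polymerase I machinery, which transcribes ribosomal RNA, 5 rose and 1 fell (Taf1b), against the same 20.8% and 22.1%. The 5 were Polr1b, a gene of a polymerase subunit, and the initiation factor genes Ubtf, Taf1a, Taf1c and Taf1d. The other subunit genes tested, Polr1a, Polr1c, Polr1d and Polr1e, did not pass. Taf1d rose from 1.96 ± 0.061 to 3.58 ± 0.19 FPKM, and Taf1a from 3.82 ± 0.17 to 6.08 ± 0.96 FPKM. The call of Taf1a was lost without the 2 muscle-rich libraries (limma, Benjamini-Hochberg adjusted p = 0.0627). None of the 10 tested chaperones and partners of ribosomal proteins passed (limma, Benjamini-Hochberg), with a median of -0.01, and at an unadjusted p under 0.05 1 did, Nap1l1 (31.2 ± 0.39 and 27.2 ± 1.32 FPKM).

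Regulators of ribosomal protein messengers moved in both directions. Of 27 tested genes of mTORC1 and TOP regulation 12 rose and 2 fell, with a median of 0.30. All counts here and in the lists that follow stand beside 20.8% of all tested genes that rose and 22.1% that fell. Ddit4, an inhibitor of mTORC1, rose from 42.8 ± 9.97 to 184 ± 38.9 FPKM, and Sesn1, another inhibitor, from 46.7 ± 8.83 to 131 ± 37.1 FPKM (SD, n = 3 each). Larp1, a repressor of TOP messenger translation that also stabilises these messengers, rose from 14.3 ± 0.35 to 19.5 ± 2.33 FPKM. The genes that fell were Tsc2, from 9.70 ± 0.47 to 7.76 ± 0.094 FPKM, and Tia1, from 3.37 ± 0.82 to 1.61 ± 0.40 FPKM. Tsc1, whose product forms a complex with that of Tsc2, rose from 3.51 ± 0.11 to 7.87 ± 1.73 FPKM. In the Myc network 4 of 11 rose (Mxi1, Mxd1, Mnt and Mlxip), 1 fell and 6 did not pass (36.4% rose, against 20.8%). None of the 4 that rose encodes a Myc protein. The Myc proteins are known to drive ribosome production, and their part in the rise was not tested. Mycn fell from 4.93 ± 0.55 to 0.99 ± 0.38 FPKM, with no overlap between groups. Mxi1, an antagonist of Myc, rose from 4.25 ± 0.58 to 17.9 ± 7.57 FPKM. Myc was at 1.29, 1.70 and 1.56 FPKM in the control nerves against 1.6, 2.26 and 4.60 FPKM in the icKO nerves. Mycl was at 4.56, 1.94 and 3.79 FPKM in the control nerves against 5.45, 6.56 and 4.22 FPKM in the icKO nerves. Both genes overlap between groups. Their differences of 0.53 and 0.57 did not pass (limma, Benjamini-Hochberg adjusted p = 0.156 and 0.116). Of 13 tested p53 targets 4 rose (Trp53inp1, Sesn1, Cdkn1a and Btg2) and 1, Ccng1, fell (30.8% rose, against 20.8%). Trp53inp1 rose from 5.59 ± 0.75 to 20.1 ± 4.73 FPKM. Of 13 genes that resolve stalled ribosomes 3 rose (Tcf25, Zfp598 and Nemf) and 1, Ltn1, fell. The 23.1% that rose are near the 20.8% of all tested genes, so the count says nothing particular about this list. Tcf25 rose from 51.3 ± 0.84 to 83.2 ± 11.3 FPKM, and Zfp598, which senses collided ribosomes, from 14.3 ± 0.54 to 20.4 ± 2.60 FPKM.

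**Figure D4:**
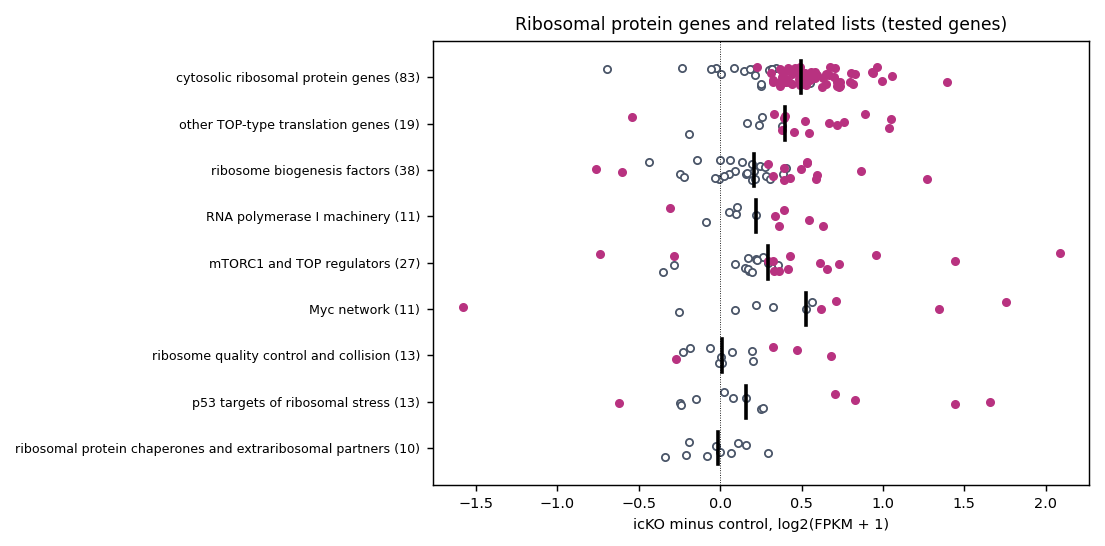
Difference between icKO and control on the log2(FPKM + 1) scale for the tested genes of each list, with the number of genes in brackets. Filled points passed an adjusted p of 0.05, and bars are medians. The median is 0.50 for ribosomal protein genes, 0.40 for the list of TOP-type genes, 0.21 for biogenesis factors and -0.01 for chaperones and partners.

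Mitochondrial ribosomal proteins, encoded by other nuclear genes, were read the same way. Of their 78 genes, all tested, 4 rose (Mrpl33, Mrpl43, Mrps9 and Mrps26), 16 fell and 58 were not called; the median was -0.04 (limma, Benjamini-Hochberg, where 20.8% of all tested genes rose and 22.1% fell). Their summed level was 633 to 662 FPKM in control and 551 to 631 FPKM in icKO libraries. The difference between the cytosolic and the mitochondrial family was not tested.

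**Figure D5:**
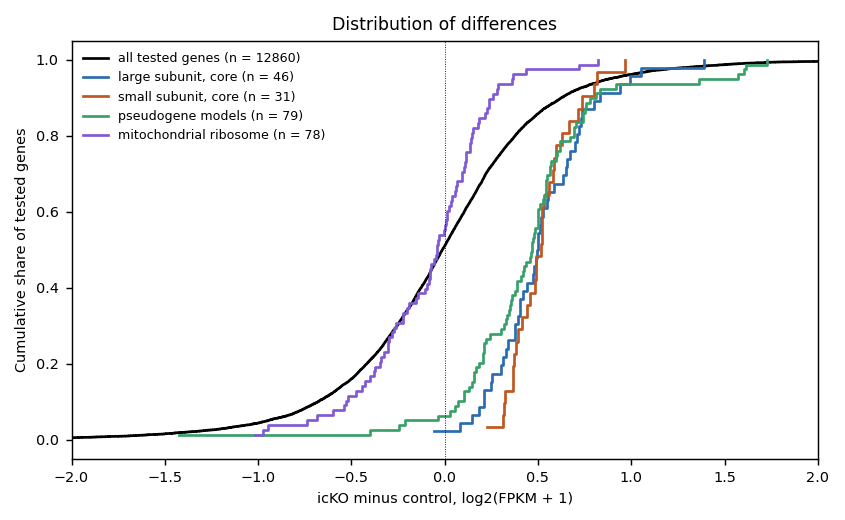
Cumulative share of tested genes by their difference between icKO and control on the log2(FPKM + 1) scale, for all 12860 tested genes, core genes of each subunit, pseudogene models (79 of 307 passed the filter) and mitochondrial ribosomal protein genes. Curves of both subunits cross the middle near 0.5, those of all genes and of the mitochondrial family near 0.

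Transcript length, muscle content and single libraries were measured beside the rise. Core transcripts have a median annotated length of 937 bases, against 2870 over all tested genes, and 70 of the 83 tested members lie in the shortest of 5 equal-sized length groups of all tested genes. Of the 2422 other genes in that group 19.2% rose, with a median difference of -0.04, against 22.3% and 0.04 in the longest. After correction of each library for trends with transcript length and GC content 68 members rose and the median was 0.57. With the muscle markers as a covariate 48 of the 83 members rose, with a median of 0.42, while 2134 of all genes rose. Without control replicate 1 and icKO replicate 3, the libraries richest in muscle transcripts, 63 of 82 rose, 1 fell (Rpl7l1) and the median was 0.57. In 59 of the 77 core genes icKO replicate 3 was the lowest of its group, and in 50 icKO replicate 2 was the highest. Control replicate 2 was the lowest control library in 52 of them.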

How the data were processed

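The deposited values are FPKM of 55335 Ensembl gene IDs in 6 libraries, computed by the authors. The genome build GRCm39 and the tools StringTie 1.3.1c, STAR, DESeq2 1.16.1 and FastQC 0.11.2 are named, with no role, in the submitters' processing notes, and the handling of strand and multiple matches is not given in the sources used here. Columns were matched to samples by title, and none was left over. Symbols (55154 IDs matched), transcript lengths and GC content came from GENCODE M21 (GRCm38), whose coordinates were not used. Start sequences came from RefSeq (GRCm38.p6).

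The test was limma 3.58.1 (R 4.3.3) on log2(FPKM + 1) for genes whose mean reached 1 FPKM, two-sided, with a variance trend and no covariate, and adjusted by Benjamini-Hochberg over 12860 genes. A fold on this scale understates the change of low genes. The procedure was tested on simulated data. Depth was estimated from the FPKM worth of 1 fragment in genes with 1 transcript. At this depth Rps28, the core gene with the lowest control level, rests on an estimated 81 to 156 fragments, a counting error of up to 11%. Near-identical copies were found with BLAST 2.17.0. Same-numbered libraries were checked for shared deviations from their group means (Pearson r -0.103, 0.043 and -0.055). No pairing by number was seen, but with 3 libraries per group the check cannot exclude one.

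Members and lists were chosen with earlier results of these data known. Named genes were Rplp0, Rplp1, Rplp2, Rpsa, Rps6 and Rpl10, the 4 largest called rises and falls per subunit, Rps4x, paralogues with their standard genes, members at 0 or below the filter, and the 2 largest called changes per list. Further list genes were named after their values were seen. Of 195 list entries 192 were matched. The 22 alternatives were other pseudocounts (0.1, 0.01), filters (none, 5 FPKM), scalings (common sum, median-of-ratios, quantile, common sum without ribosomal protein genes), variance models, a replicate block, an adjusted p of 0.1, a length and GC correction, a muscle covariate and left-out libraries. Values of some genes are not reported here.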

Additional observations from a re-analysis of the deposited data

How the results depend on the processing

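All 66 called ribosomal protein genes kept their direction under the 22 alternatives, 47 of them also kept their call, and 19 lost it under at least 1. Of the 17 without a call 6 gained one, 5 as a rise and Rpl7l1 as a fall. The number that rose ranged from 48 with the muscle covariate to 71 at an adjusted p of 0.1. Leaving out single libraries gave 29 to 39 large subunit and 23 to 29 small subunit genes that rose. Of all 12796 to 12888 genes tested in these fits, 1857 to 2534 were higher and 1871 to 2942 lower (1871 without control replicate 3). Medians were 0.416 (without icKO replicate 2) to 0.552 in the large subunit. Large subunit genes that fell numbered 0 or 1 in these fits, and 1 without the 2 muscle-rich libraries. The large subunit median was 0.57 with the length and GC correction, 0.412 with the muscle covariate and 0.575 without the 2 muscle-rich libraries, and the cause was not tested. With a filter at 5 FPKM 1696 of all genes were higher and 1612 lower, as 6888 genes were then tested. In the replicate block fit 59 members rose and none fell, and 2272 and 2324 of all genes were higher and lower. No pairing of the libraries by number was seen in the check above. Counting error limits genes near the filter. Rpl3l, which lies near it, also differed widely within groups, with its highest values in the 2 muscle-rich libraries.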
